A study of Rattus norvegicus with 24 samples.

Results

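In whole dorsal root ganglia (DRG) of rats with or without a spinal cord injury (SCI), 21 of the 24613 genes in the count matrix were higher in every sample of the transected and exercised animals than in every sample of the uninjured and un-exercised contused animals, by at least 0.6 on a log2 scale. They were chosen on the counts themselves. Each count was divided by the total of its library and multiplied by 1000000 to give CPM, and L is log2(CPM + 0.5). A gene was a member when its mean CPM over the 24 samples was at least 1, when all 14 samples of complete transection, swimming and shallow water walking lay above all 10 samples of No SCI and plain contusion, and when the mean L of the 14 exceeded that of the 10 by at least 0.6. The difference between the 14 and the 10 is therefore given as a description, with no test.

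RNA from 24 adult female Sprague Dawley rats was sequenced, with 1 animal per sample and the T11 to L4 ganglia of both sides pooled within the animal. No SCI animals (n = 4) were naïve and were collected at 11.5 weeks. CONT SCI animals (n = 6) received a laminectomy and an impact of 25 g-cm at T2 and were collected 11.5 weeks later. CONT SCI + SWIM (n = 5) and CONT SCI + SWW (n = 5) received the same contusion, then swam or walked in shallow water for 10 weeks, 5 days a week, from 2.5 weeks after injury, and were collected at 13.5 weeks. TX SCI animals (n = 4) also received a laminectomy, had the cord cut completely at T2, did not exercise and were collected at 8.5 weeks. Per the methods of the study, animals of all 5 groups, the naïve ones included, lived in small cages that limited walking. Time of collection and group cannot be told apart between the 14 and the 10 samples, since the 10 all come from 11.5 weeks and the 14 from 8.5 or 13.5 weeks.

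DRG hold the cell bodies of the sensory neurons that carry touch, position, temperature and pain from skin, muscle and viscera to the spinal cord. Each neuron is wrapped by satellite glia, its axon is ensheathed by Schwann cells, and fibroblasts, vessels and macrophages fill the rest of the ganglion. A contusion spares part of the descending fibres, while a complete transection removes them, and ganglia below the lesion keep their peripheral connections in both cases. In such bulk tissue, a change in the number of cells of a type and a change in RNA per cell cannot be told apart.

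The matrix gives Ensembl identifiers without names, and none of the 47357 genes of the annotation at hand carries an Ensembl identifier. The members are therefore described by their values. The first and second are given by identifier and the others by their place in the order of the difference, from member 1 with the largest to member 21 with the smallest. For the same reason the tissue was not checked against its marker genes, and no function is given for any member.

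The members were a small part of the genes that separated the same samples. Of 13482 genes with a mean CPM of at least 1, 329 had all 14 samples above all 10, which is 2.44%, and 21 of these (6.38%) reached the required difference of 0.6. In the opposite direction 527 genes (3.91%) did not overlap, of which 357 reached that difference. The separated genes were thus mostly lower in the 14 samples, and the lower ones also moved further. Over all non-overlapping genes, the median size of the difference was 0.31 for the higher and 0.76 for the lower, and a difference of at least 1 was reached by 5 members and by 172 of the 357 lower genes. When libraries were scaled by TMM (edgeR's trimmed mean, which allows for a few genes taking a large share of the counts) in place of their totals, 205 genes were higher without overlap and 615 lower, so that the higher share of the non-overlapping genes was 25.0% in place of 38.4%. The median difference over all 13482 genes was 0.042 with totals and 0.00087 with TMM.

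A large rise alone did not make a member. Of the 92 genes with a mean CPM of at least 1 whose difference reached 0.6, the members made up 22.8%, and of the 27 genes whose difference reached 1, 5 were members. In the others, at least 1 of the 14 samples did not exceed the highest of the 10. Among the genes lower in the 14 samples, 79.0% of the 452 with a difference of -0.6 or less were separated without overlap.

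**Figure D1:**
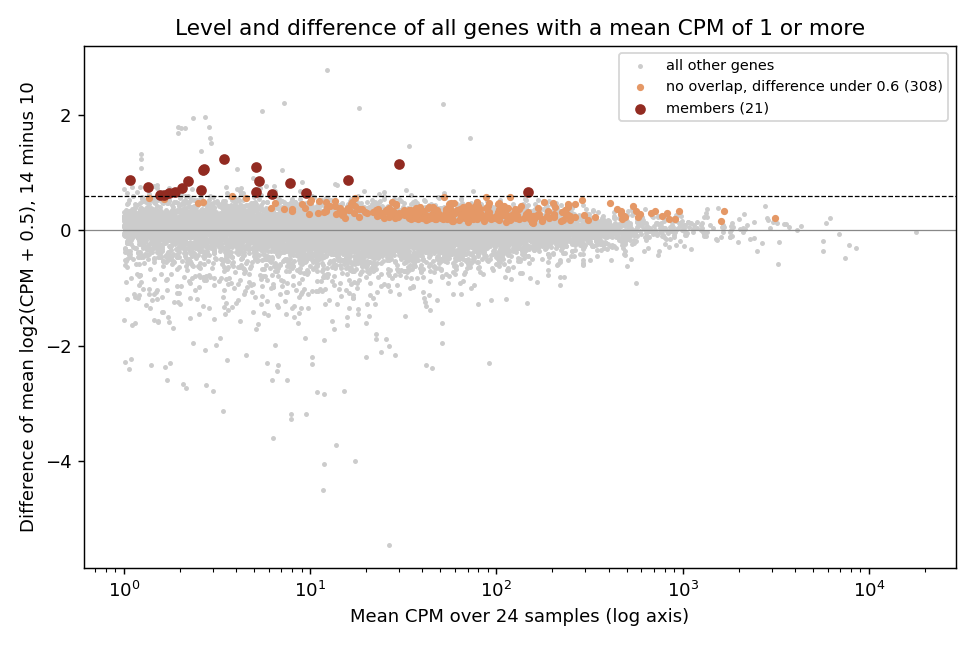
Each point is 1 of 13482 genes, with its mean CPM over 24 samples on a log axis and the mean log2(CPM + 0.5) of the 14 TX SCI and exercised samples minus that of the 10 others on the vertical axis. The 21 members (dark red) lie mostly at low levels with a median of 2.69 CPM, while the 308 non-overlapping genes under the required difference of 0.6 (orange, dashed line) have a median of 63.9 CPM.

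The members were low in abundance. Their mean CPM ranged from 1.08 to 148, with a median of 2.69, against a median of 24 over all 13482 genes. Below 3 CPM lay 11 of the 21 members and 11.6% of all genes, and at 10 CPM or more lay 3 members and 70.5% of all genes. At these low levels a required difference of 0.6 is met with few reads, and adding 0.5 to CPM makes the differences smaller than those of CPM itself. The 308 other genes that were higher without overlap had a median of 63.9 CPM, and the 357 lower genes a median of 10.6 CPM. No member fell to 0 in any sample. The fewest counts behind a member were 12 in a sample and the most were 7813, all 21 members had at least 10 counts in every sample, and 6 had at least 100. Together the members took 0.0158% to 0.0208% of the counts in the 10 samples and 0.0270% to 0.0385% in the 14.

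The depth of counting moved with the 2 sides. The totals ranged from 29191327 to 38370849 counts in the 10 samples and from 16086670 to 38730307 in the 14, and 11 of the 14 lay under the lowest of the 10. Applied to the 10 and only the 3 of the 14 that were as deep, the same rule took 45 genes, 18 of them members. With 3 samples it is easier to meet, and how far depth bears on the members was not tested beyond this.

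The largest difference was in ENSRNOG00000029996, with 1.23 on the L scale. Its 4 No SCI samples had 1.67, 1.15, 1.45 and 1.99 CPM, and its 6 CONT SCI samples ranged from 1.51 to 2.23 CPM with a median of 1.74. The TX SCI samples had 4.94, 4.86, 4.62 and 3.49 CPM. Both sets of exercised animals overlapped with the transected ones. CONT SCI + SWIM had 6.61, 4.29, 4.97, 3.77 and 4.57 CPM, and CONT SCI + SWW had 4.12, 6.77, 4.98, 4.64 and 3.30 CPM. The mean CPM of the 14 was 2.77 times that of the 10, and the lowest of the 14 lay 0.48 above the highest of the 10 on the L scale, the widest gap of any member. These values rest on 34 to 203 counts per sample.

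ENSRNOG00000033100 was second in difference, with 1.16, and second in abundance, with a mean of 30.1 CPM. No SCI samples had 16.3, 13.3, 14.5 and 18.0 CPM, and CONT SCI samples ranged from 14.9 to 23.5 CPM with a median of 17.9. CONT SCI + SWIM samples had 31.8, 31.1, 32.5, 37.8 and 32.3 CPM, and CONT SCI + SWW samples had 32.1, 40.9, 38.9, 31.9 and 36.2 CPM. The exercised samples lay between the 10 low samples and TX SCI, which reached 48.5, 49.8, 61.3 and 45.1 CPM. This gene thus fell into 3 levels without overlap between them. The step above the 10 low samples is required of every member, and that between the exercised and TX SCI samples is not. Transected animals averaged 51.2 ± 7.04 CPM (SD, n = 4), swimmers 33.1 ± 2.70 (SD, n = 5) and shallow water walkers 36.0 ± 4.00 (SD, n = 5), against 18.3 ± 3.11 (SD, n = 6) after contusion alone and 15.5 ± 2.04 (SD, n = 4) without injury.

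Members 3 and 4 were highest after transection, where they were also the most uneven. Member 3 had 2.72, 2.63, 2.75 and 2.64 CPM in No SCI and 1.86 to 2.82 CPM in CONT SCI (median 2.48). In TX SCI it had 7.44, 17.1, 8.75 and 19.1 CPM. In CONT SCI + SWIM it had 4.46, 4.85, 4.38, 3.13 and 5.58 CPM, and in CONT SCI + SWW 4.01, 3.53, 3.37, 7.08 and 5.05 CPM. All 4 TX SCI samples lay above all 10 exercised samples, but the TX SCI samples themselves spread from 7.44 to 19.1 CPM. Member 4 had 0.949, 1.55, 1.60 and 1.47 CPM in No SCI and 0.989 to 1.51 CPM in CONT SCI (median 1.25). In TX SCI it had 2.25, 6.92, 5.22 and 9.69 CPM. It had 3.52, 3.54, 3.78, 2.02 and 3.48 CPM in CONT SCI + SWIM and 2.02, 1.93, 2.19, 3.04 and 1.81 CPM in CONT SCI + SWW. The lowest TX SCI sample lay within the exercised range, so the groups overlapped for member 4.

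The same libraries were high for both of these genes. TX SCI replicate 4 was the highest and TX SCI replicate 1 the lowest of the 4 for member 3 and for member 4. In TX SCI the SD of L was 0.65 for member 3 and 0.81 for member 4, against at most 0.40 and 0.31 in any other group. With group means removed, L of members 3 and 4 correlated over the 24 samples with r = 0.76, the highest of the 210 pairs of members. The median r over these pairs was 0.27, against 0.022 over all pairs of the 13482 genes, and the lowest was -0.29. For members 3 and 4, the widely spread TX SCI samples weigh most in r, and r within single groups was not computed. The points of such a correlation share their libraries and library totals, and the 24 samples were the ones on which the members were chosen.

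**Figure D2:**
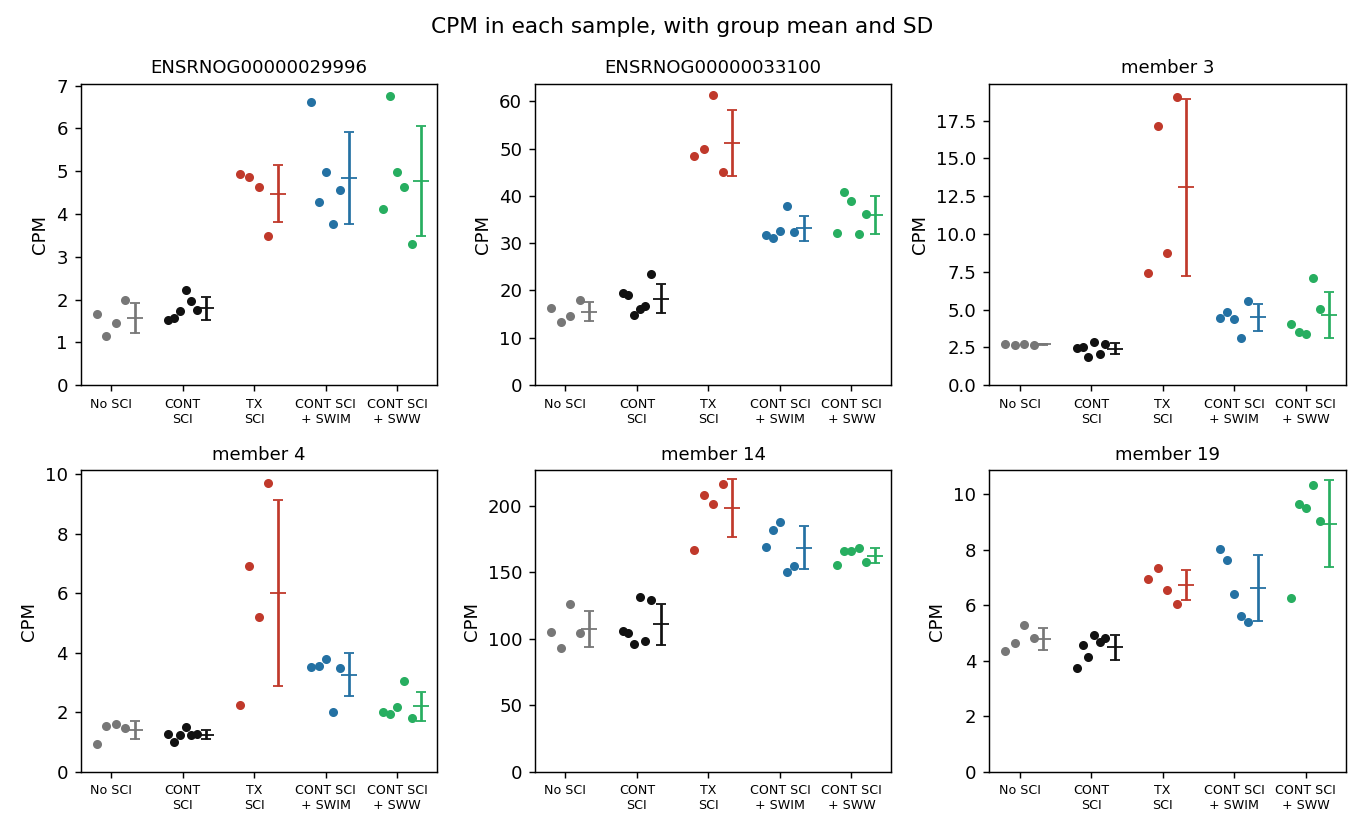
CPM (vertical axis, from 0) in each of the 24 samples for 6 members, by group, with the group mean and SD drawn beside the points (n = 4, 6, 4, 5 and 5 from left to right). In ENSRNOG00000033100 the TX SCI samples (45.1 to 61.3 CPM) lie above the exercised ones (31.1 to 40.9 CPM), whereas in ENSRNOG00000029996 the 3 high groups share a range of 3.30 to 6.77 CPM.

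In 14 of the 21 members, the group means of L in TX SCI, CONT SCI + SWIM and CONT SCI + SWW lay within 0.2 of each other, and the narrowest range was 0.019. The same held for 51.6% of all 13482 genes, and whether the rule itself bears on such evenness was not tested. TX SCI had the highest mean of the 3 groups for 12 members, CONT SCI + SWIM for 6 and CONT SCI + SWW for 3. These counts were not computed over all genes. As a related share, TX SCI exceeded the mean of the exercised groups for 57.0% of all genes tested in the edgeR fit with TMM. It did so for 14 of the 21 members. On the low side, CONT SCI exceeded No SCI in mean L for 10 of the 21 members, and the largest difference between these 2 groups was 0.30. This count depends on the scaling. In the edgeR fit with TMM, CONT SCI was higher for 14 of the 21, and for 49.8% of all genes tested. Within groups, the members spread a little more than other genes, with a median SD of L of 0.17 (range 0.12 to 0.39) against 0.13 over all 13482 genes. The members were also less abundant, with a median of 2.69 against 24 CPM, and spread was not compared at matched levels.

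Member 12 shows this even pattern. It had 1.54, 1.52, 1.09 and 1.27 CPM in No SCI and 1.10 to 1.62 CPM in CONT SCI (median 1.28). It had 2.40, 2.41, 2.43 and 2.31 CPM in TX SCI, 3.17, 2.61, 2.39, 2.63 and 2.43 CPM in CONT SCI + SWIM and 2.66, 3.17, 2.62, 2.49 and 2.24 CPM in CONT SCI + SWW. The ranges of the 3 high groups overlapped. Member 18, at a higher level, followed the same course. Uninjured animals averaged 7.15 ± 0.428 CPM (SD, n = 4) and contused ones 6.84 ± 0.492 (SD, n = 6), while transected animals averaged 11.1 ± 0.722 (SD, n = 4), swimmers 11.5 ± 0.811 (SD, n = 5) and walkers 11.2 ± 1.74 (SD, n = 5). Member 7, the third most abundant, had 8.15 to 12.9 CPM in the 10 samples and 17.2 to 23.4 CPM in the 14. Member 5 had 1.18 to 1.80 CPM in the 10 and 2.69 to 4.49 CPM in the 14, and its gap of 0.47 was nearly as wide as that of the first gene.

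The most abundant member, member 14, had a mean of 148 CPM and the smallest ratio, 1.60 between the mean CPM of the 14 and the 10. Its No SCI samples had 105, 93.4, 126 and 105 CPM, and its CONT SCI samples ranged from 96.4 to 131 CPM with a median of 105. Its TX SCI samples had 167, 208, 202 and 217 CPM. Its CONT SCI + SWIM samples had 169, 182, 188, 150 and 155 CPM, and its CONT SCI + SWW samples 155, 166, 166, 168 and 158 CPM. All 3 high groups lay above 131 CPM, and 3 of the 4 TX SCI samples lay above every exercised sample.

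Of the remaining members, member 6 was the least abundant at 1.08 CPM, with 0.405 to 0.818 CPM in the 10 samples and 0.848 to 2.24 CPM in the 14, on 12 to 55 counts per sample. Members 8, 9, 10 and 11 differed by 0.86, 0.85, 0.83 and 0.76. Their mean CPM ratios were 2.12, 1.93, 1.85 and 2.12. These 4 genes ranged from 1.35 CPM in member 11 to 7.77 CPM in member 10, all under the median of 24 CPM over all 13482 genes. Members 13, 15, 16 and 17 differed by 0.70, 0.67, 0.66 and 0.66, with mean CPM ratios of 1.81, 1.69, 1.81 and 1.83. Members 20 and 21 both differed by 0.61, with 0.916 to 1.41 against 1.67 to 2.32 CPM and 0.795 to 1.28 against 1.46 to 2.29 CPM. Across all 21 members the ratio of the mean CPM of the 14 to that of the 10 ran from 1.60 to 2.81. By group, the ratio reached 3 for 2 members in TX SCI, 5.22 for member 3 and 4.60 for member 4, and for 0 members in either exercise group. These ratios use the values on which the members were chosen. The share of all 13482 genes with a ratio of 3 was not computed.

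**Figure D3:**
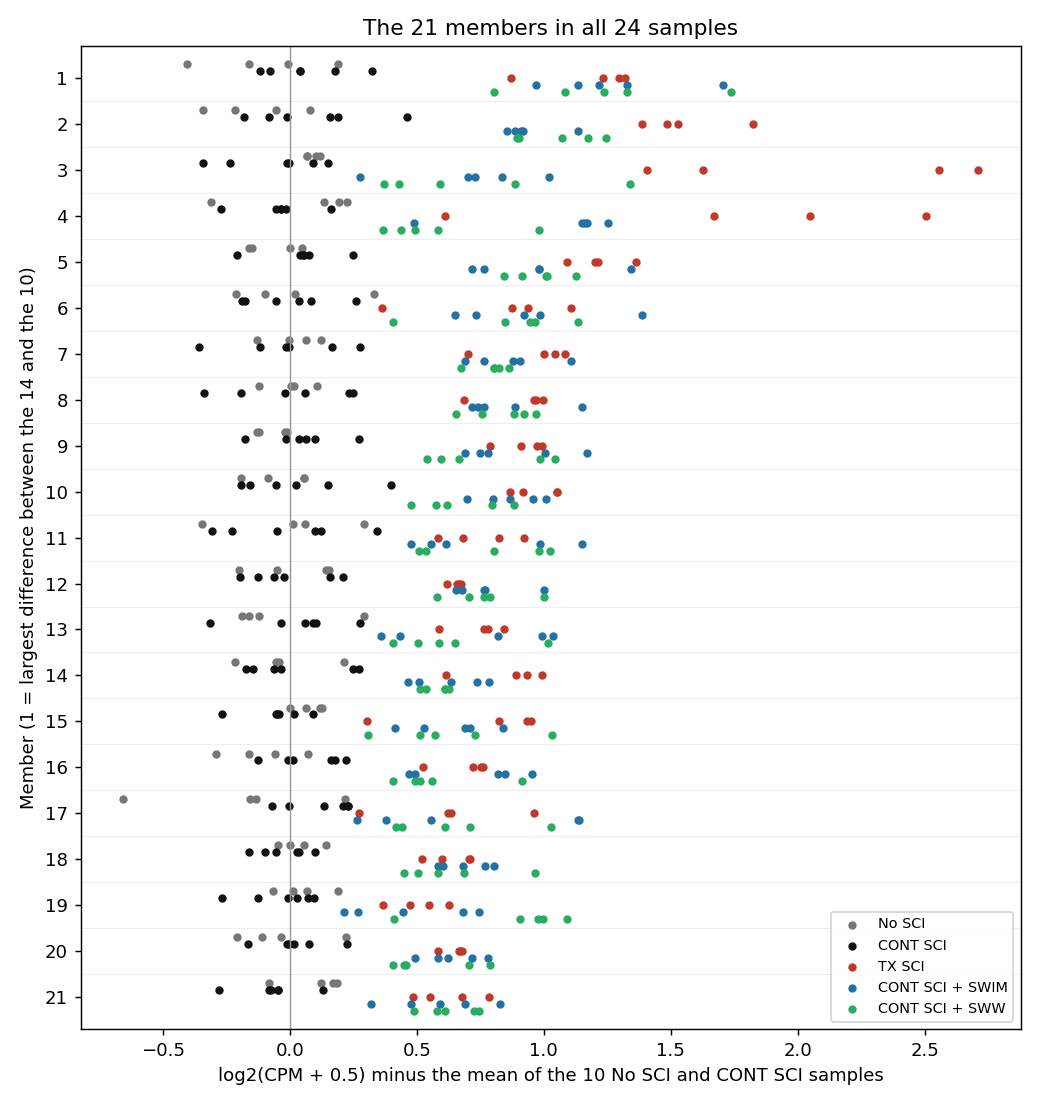
Each row is 1 member, ordered by the difference between the 14 and the 10, and each point is 1 of 24 samples, placed at its log2(CPM + 0.5) minus the mean of the 10 low samples, with colours for the 5 groups. The No SCI and CONT SCI points surround 0 in every row and all others lie to their right, as the choice of members requires, and the TX SCI points of members 2 and 3 lie beyond those of the exercised samples.

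The thresholds cut through a continuous range. The 3 members just inside the required difference had 0.61, 0.61 and 0.63, and the 3 non-overlapping genes just outside it had 0.59, 0.58 and 0.58. The smallest gaps between the lowest of the 14 and the highest of the 10 among members were 0.026, 0.033 and 0.034, and the 3 genes nearest outside overlapped, with gaps of -0.0092, -0.026 and -0.043. The gap was under 0.1 in 5 members. At the level of 1 CPM, the lowest members had 1.08, 1.35 and 1.56 CPM, and 2 further genes that met both other criteria had 0.533 and 0.358 CPM. The edge of the low side was set by a CONT SCI sample in 14 members, 8 times by CONT SCI replicate 4. CONT SCI makes up 6 of the 10 low samples. That of the high side was set by a CONT SCI + SWW sample (n = 5) in 10 members. It was a CONT SCI + SWIM sample (n = 5) in 9 and a TX SCI sample (n = 4) in 2. The same counts over all non-overlapping genes were not computed.

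A set of 3 differences did not enter the rule directly, because the groups compared lie on the same side of it. These were tested with edgeR's quasi-likelihood test in a single fit of all 24 samples and adjusted by the Benjamini-Hochberg method over 15247 genes. All 21 members passed the filter on low counts. Since members may not overlap between the sides, a gene with a large spread within a side had less chance to be a member, and the counts below are to be read with that limit.

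The first asks whether contusion without exercise moved these genes, in animals collected at the same time as the naïve ones. The methods of the study give laminectomy and drugs after surgery for injured animals only, so these cannot be told apart from the contusion. No member passed an adjusted p of 0.05 between CONT SCI and No SCI, where 11.9% of all genes did (8.13% higher and 3.78% lower). DESeq2's Wald test also called 0. In edgeR's test, 1 member and 21.9% of all genes tested had an unadjusted p under 0.05. That member was ENSRNOG00000033100, with a log2 fold change of 0.27 (SE 0.11, edgeR adjusted p = 0.155). The log2 fold changes of the 21 members ranged from -0.20 to 0.42. Their median was 0.041, against -0.00091 over all genes tested. The median size of the change was 0.12 in the members and 0.10 over all genes, and the median SE was 0.14 against 0.092, so the members were measured less precisely than most genes.

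The second asks whether the transected and the exercised animals reached the same level. Of the 21 members, 4 were higher in TX SCI than in the mean of CONT SCI + SWIM and CONT SCI + SWW, and 0 were lower. Over all genes tested 21.3% were called, 11.8% higher and 9.5% lower. These were members 2, 3, 4 and 14. ENSRNOG00000033100 (member 2) rose by 0.55 (SE 0.096, edgeR adjusted p = 0.000326), with all 4 TX SCI samples above all 10 exercised samples. Member 3 rose by 1.52 (SE 0.19, edgeR adjusted p = 2.29e-05), also without overlap, and member 4 by 1.17 (SE 0.22, edgeR adjusted p = 0.000562), with overlap. Member 14 rose by 0.24 (SE 0.081, edgeR adjusted p = 0.0323). These first 3 calls held with each sample of the 3 groups left out in turn, with log2 fold changes of 0.45 to 0.60 for member 2, 1.28 to 1.72 for member 3 and 0.85 to 1.44 for member 4. The call of member 14 was lost in 6 of these 14 fits, with edgeR adjusted p of 0.116, 0.0785 and 0.153 without TX SCI replicates 2, 3 and 4, 0.0648 and 0.0525 without CONT SCI + SWIM replicates 4 and 5, and 0.0505 without CONT SCI + SWW replicate 1. Injury, exercise and time of collection differ together between these groups.

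Among the 17 other members, the log2 fold changes between TX SCI and the exercised groups lay within -0.21 and 0.26, on either side of the median of all genes at 0.033. ENSRNOG00000029996, which had the largest difference between the 14 and the 10, had -0.12 here (SE 0.16, edgeR adjusted p = 0.639). Member 5 had 0.26 (SE 0.11, edgeR adjusted p = 0.106), and it was the 1 further member called when CONT SCI + SWIM replicate 3 was left out.

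The third asks whether the form of exercise made a difference, at the same time of collection. Member 19 was lower in CONT SCI + SWIM than in CONT SCI + SWW, by a log2 fold change of -0.43 (SE 0.12, edgeR adjusted p = 0.0492), and no member was higher. Over all genes 3.56% were called, 3.1% higher and 0.466% lower. Member 19 had 8.02, 7.65, 6.41, 5.62 and 5.39 CPM in CONT SCI + SWIM and 6.25, 9.63, 9.49, 10.3 and 9.03 CPM in CONT SCI + SWW. The ranges overlapped through CONT SCI + SWW replicate 1, and TX SCI lay with the swimmers at 6.94, 7.34, 6.56 and 6.06 CPM. Its No SCI samples had 4.35, 4.63, 5.29 and 4.83 CPM, and its CONT SCI samples ranged from 3.73 to 4.92 CPM with a median of 4.62. The call lay at the threshold and was lost without CONT SCI + SWIM replicate 2, 3, 4 or 5 or CONT SCI + SWW replicate 2, 3, 4 or 5, with edgeR adjusted p from 0.0502 to 0.158. Member 4 had the largest log2 fold change in the other direction, 0.58 (SE 0.26, edgeR adjusted p = 0.217).

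**Figure D4:**
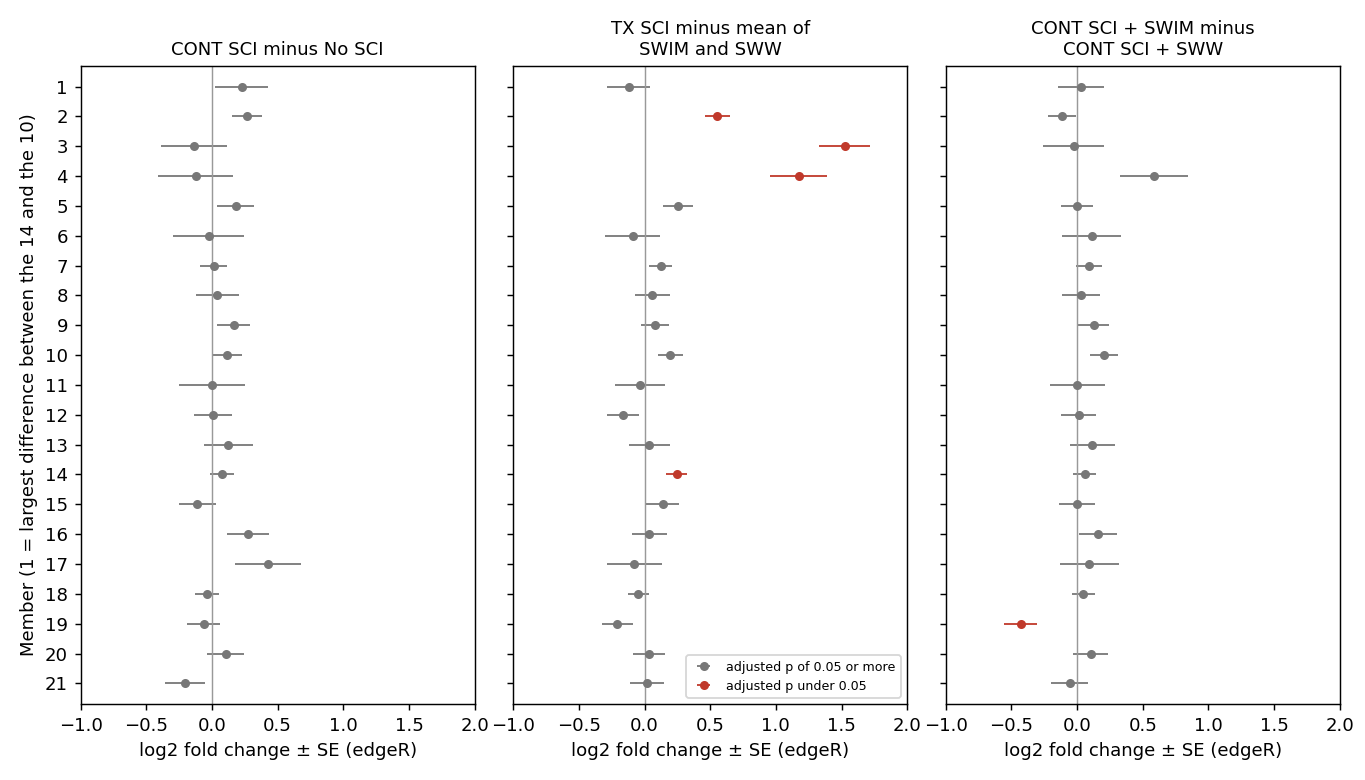
Log2 fold changes of the 21 members (horizontal axis, edgeR, bars of 1 SE) for CONT SCI minus No SCI, TX SCI minus the mean of both exercise groups, and CONT SCI + SWIM minus CONT SCI + SWW, with an adjusted p under 0.05 in red. Red points stand at members 2, 3, 4 and 14 in the middle panel and at member 19 in the right panel, and most other points lie within 0.3 of 0.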

How the data were processed

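Poly-A selected RNA from DRG of 24 rats was sequenced as single-end reads. Per the methods of the study, the authors aligned the reads to Rn6 with STAR, counted them per Ensembl gene with HTSeq 0.10.0 using strand (FastQC 0.10.1 for quality) and left out mitochondrial genes. The authors deposited whole-number counts without normalization, 1 column per animal. Reads shared by near-identical or overlapping genes may be lost from such counts, so a member with a close copy is uncertain.

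Columns were matched to samples by group and replicate in their names. Replicates were used as separate animals. Counts of any 2 replicates differed by a chi-square of at least 2.98 per gene, beyond sampling noise. Python 3.11.15, R 4.3.3, edgeR 4.0.16 and DESeq2 1.42.0 were used. The filter was filterByExpr with a minimum count of 10 and total of 15. Libraries were scaled by TMM and tested by glmQLFTest in a fit with 5 group terms. Standard errors (SE) were obtained as log2 fold change over the root of F. The test was checked on simulated data. Alternatives were RLE scaling, DESeq2, no filter, other samples in the fit, a replicate block, other thresholds and each sample left out.

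The members, lists and tests were chosen with earlier results of these data known. The rule for naming genes fell back on 2 identifiers, those with the largest difference, because no names could be matched; other members were described by rank. Lists of pathway and cell type genes and promoter sequences were not used here.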

Additional observations from a re-analysis of the deposited data

Results flagged for a closer look

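For each member, each group was searched for a sample far from the others on the L scale. In 105 such sets, chance alone gives about 5.25 (1 in 20), and 7 were found. Member 2 had 37.8 CPM in CONT SCI + SWIM replicate 4, against 31.1 to 32.5 in the other 4. Member 4 had 2.02 CPM in the same library, against 3.48 to 3.78, and 0.949 CPM in No SCI replicate 1, against 1.47 to 1.60. Member 8 had 2.45 CPM in TX SCI replicate 1, against 3.07 to 3.15 in the other 3. Member 13 had 2.26 CPM in No SCI replicate 4, against 1.48 to 1.57. Member 19 had 6.25 CPM in CONT SCI + SWW replicate 1, against 9.03 to 10.3, and member 20 had 1.95 CPM in TX SCI replicate 4, against 2.10 to 2.12.

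Transected and exercised animals differed for 4 of the 21 members (edgeR's quasi-likelihood test with an adjusted p under 0.05), near the 21.3% of all genes called, and the call of member 14 was lost in 6 of the 14 fits without a sample. Swimmers and shallow water walkers differed for 1 of the 21, near the 3.56% of all genes called, and that call was lost in 8 of 10 such fits.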

How the results depend on the processing

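The number of members depended on the thresholds and the pseudocount more than on single samples. It was 9 with a pseudocount of 2, 9 with a mean CPM of at least 5, 173 with a difference of at least 0.3 and 5 with a difference of at least 1. It was 16 with TMM scaling, all among the 21, 25 with a pseudocount of 0.1 and 23 with a mean CPM of at least 0.1. Leaving out each sample gave 20 to 29 members, of which 20 or 21 were among the 21, with 29 without No SCI replicate 3 and 27 without CONT SCI replicate 4. With only TX SCI and exercised samples as deep as the 10, a setting chosen after seeing the data, 45 genes passed, 18 of them members. The difference of ENSRNOG00000029996 fell to 0.85 with a pseudocount of 2.

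Between CONT SCI and No SCI, 0 members were called in any setting tried, while 1262 to 1953 of all genes were at an adjusted p of 0.05. Between TX SCI and the exercised groups, 3 to 5 were called with each sample left out, and 3 or 4 in all other settings. Between swimmers and shallow water walkers, 0 members were called with all genes that had a count, with only the groups compared and at an adjusted p of 0.01, and 0 to 1 with each sample left out. Over all genes, this last comparison called 543 genes, 863 with DESeq2 and 167 (without CONT SCI + SWIM replicate 3) to 828 (without CONT SCI + SWW replicate 5) with a sample left out. The comparison of TX SCI called 3246, and 1886 without TX SCI replicate 4 to 3450 without CONT SCI + SWW replicate 4.

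With the replicate number as a block, 0 members were called between CONT SCI and No SCI, 3 between TX SCI and the exercised groups (member 14 had an edgeR adjusted p of 0.0673) and 0 between the exercise groups (member 19 had 0.0897). Calls over all genes fell too, from 1815 to 1500, from 3246 to 2617 and from 543 to 426. The labels tie the numbers to no shared litter or day. Deviations of same-numbered samples correlated with r from -0.17 to 0.28 over 17 pairs. In 2 of the 17, a sample correlated best with its own number. This check showed no pairing by number, but with so few pairs it cannot exclude one.

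The least abundant member rests on 12 to 55 counts per sample, and a p that misses the threshold does not show that values did not differ.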
